A study of Mus musculus with 3 samples.

Results

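Natural killer (NK) cells were set against memory-type CD8 T cells, both picked by transcript counts from single-cell libraries of mouse blood. Of 22688 cell barcodes with 200 or more genes, 896 were NK cells (3.95%) and 1139 were memory-type CD8 T cells (5.02%). An NK barcode held 3 or more unique molecular identifiers (UMIs, each standing for 1 captured probe molecule) of Ncr1, Klrb1c and Klre1 together and no more than 1 UMI of Cd3e, Cd3d and Cd3g. A memory-type CD8 T barcode held 4 or more UMIs of Cd3e, Cd3d, Cd3g, Trac and Trbc2, 2 or more of Cd8a and Cd8b1, 3 or more of Ccl5, Cxcr3 and Il2rb, and none of Cd4 or Ncr1. In both arms the B cell genes Cd79a, Cd79b and Ms4a1 summed to 2 UMIs or less, and the myeloid genes Csf1r and Csf3r to 1 or less. UMIs were then summed per library and arm, and the 2 sums of a library were compared as a pair.

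The study profiled leukocytes from peripheral blood of untreated mice after red cell lysis, a sort with the DNA dyes DAPI and Draq5, and fixation. Its 3 libraries, called replicates 1, 2 and 3, carry ages of 8, 9 and 10 weeks, a genotype label that reads Male and one common batch label. Probes against transcripts were counted in the multiplexed fixed-RNA format of 10x Genomics. The labels do not say that the libraries come from separate animals. The p-values below therefore measure how the difference between the arms varies over these libraries, and that variation may be technical. Each library has its own age, so age cannot be told apart from other differences between libraries.

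NK cells are innate lymphocytes that kill infected or transformed cells without a rearranged antigen receptor. They read a balance of activating and inhibitory receptors, many of them killer lectins, and pass activating signals through adaptor proteins with immunoreceptor tyrosine-based motifs (ITAMs). CD8 T cells read peptides on major histocompatibility complex class I through a clonal T cell receptor, and after a first encounter persist as memory cells. Both lineages kill with perforin and granzymes stored in secretory granules, and both use the T-box factors T-bet and Eomes.

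Replicate 1 supplied 661 NK and 739 memory-type cells, replicate 2 supplied 146 and 212, and replicate 3 supplied 89 and 188. NK cells made up 6.01%, 2.89% and 1.34% of the barcodes of replicates 1, 2 and 3, and memory-type CD8 T cells made up 6.72%, 4.2% and 2.83%. The median NK cell held 3344, 3572 and 3417 UMIs, against 4944, 5002 and 4303.5 UMIs in the median memory-type cell. The libraries shared 83, 101 and 48 barcode sequences pairwise, of which at most 1 per pair fell in the arms of both. Scrublet called 4, 4 and 1 of the NK barcodes and 1, 1 and 0 of the memory-type barcodes doublets. Haemoglobin and other red cell transcripts set replicate 2 apart in both arms: their summed level was 630 to 14738 CPM (UMIs of a gene scaled to a common library total) in NK sums and 651 to 17194 CPM in memory-type sums, highest in replicate 2 each time. None of 6 tested red cell markers was higher in NK cells and 2 were lower.

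The genes that chose the cells describe the arms and were not tested. Ncr1, the NK receptor NKp46, reached 2425 ± 173 CPM in NK cells and had no UMI in memory-type cells, as the gate required (plain CPM, mean ± SD over n = 3 libraries, for these gate genes). Cd8a stood at 4.04 ± 1.29 CPM in NK cells and 1094 ± 82.7 CPM in memory-type cells, and Cd3e at 1.19 ± 1.03 CPM and 1396 ± 11.2 CPM. Of the 3 genes of the memory gate, Ccl5, a chemokine stored for rapid release, averaged 17605 ± 2841 CPM in NK cells and 5728 ± 618 CPM in memory-type cells. Il2rb, the chain that interleukin 2 and interleukin 15 receptors share, averaged 2938 ± 114 CPM in NK cells and 1297 ± 205 CPM in memory-type cells. Cxcr3, a receptor for interferon-induced chemokines, averaged 109 ± 63.3 CPM in NK cells and 390 ± 24.2 CPM in memory-type cells. The gate asked for these genes on the T cell side alone, so their values describe the arms and nothing is read from the differences.

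The NK gate left few cells at its edge, and the memory gate left many. The median NK cell of replicates 1, 2 and 3 held 16, 17 and 14 UMIs of the NK gate genes, 2 cells in all sat at 3 UMIs, and 3 more cells at 2 UMIs fell just outside. The median memory-type cell held 18, 21.5 and 12 UMIs of the memory genes, and 28.0%, 23.1% and 35.6% of the cells held 3 to 5. The 174 cells at 3 memory UMIs, just inside, had 79.4 ± 14.2 CPM of Prf1 and no Gzmm, against 86.7 ± 7.31 CPM of Prf1 and 2.13 ± 2.13 CPM of Gzmm in the 336 cells at 2 UMIs, just outside (plain CPM, n = 3).

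Other populations of the same libraries stand beside the arms below, as levels with no test. Naive-type CD8 T cells, 907 in all, passed the T cell side of the gate with no UMI of the memory genes. B cells, 8809 in all, held 4 or more UMIs of Cd79a, Cd79b and Ms4a1 and none of the T cell receptor, CD3 or NK genes of the gates. They give a level at which free RNA can appear in cells that lack a gene. Because barcodes with those T cell or NK UMIs were left out, that level may be too low for transcripts of T and NK cells. Unless named plain, levels in the arms are CPM scaled by the library's TMM factor (trimmed mean of M values), given per library or as mean ± SD over n = 3 libraries, and levels in naive-type and B cells are plain CPM. Levels of different genes are not compared with each other, since probes differ between genes.

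Across 8845 genes tested, 2196 (24.8%) were higher in NK cells and 2247 (25.4%) were lower, at a Benjamini-Hochberg adjusted p under 0.05 in edgeR's quasi-likelihood test with the library as a block. The 3 NK libraries all lay above the 3 memory-type libraries for 25.7% of tested genes and all below for 26.0%. These shares are the background for every count that follows: with 50.2% of genes called in either direction, a gene list with about as many calls is not set apart by its count. Folds below are log2 folds of NK cells over memory-type CD8 T cells from this edgeR fit. Each passed the threshold unless the text says that it was not called. The SE beside a fold is the absolute log2 fold divided by the square root of its F statistic. It is not an SE that the fit reports, and the adjusted p does not follow from it alone. A log2 fold of 2 or more was rarer, at 4.64% of genes higher and 4.16% lower. Without replicate 1, which holds most of the cells, the calls were 1396 higher and 1330 lower.

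**Figure D1:**
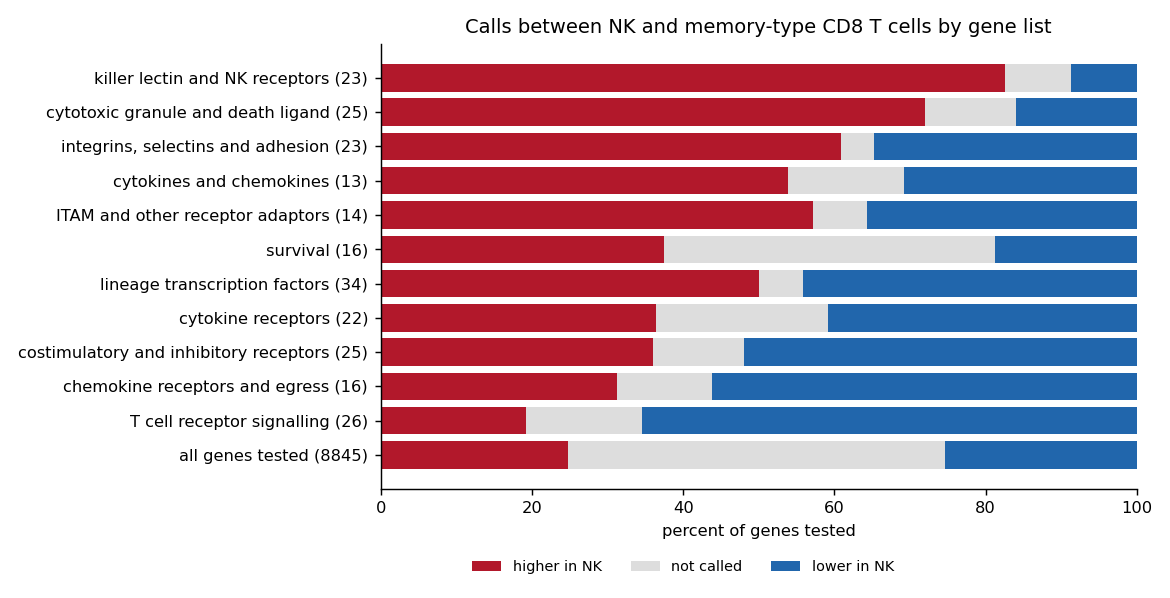
Percent of tested genes called higher in NK cells, not called, or lower in NK cells, for each of 11 gene lists (number of genes tested in parentheses) and for all genes tested. Killer lectin and NK receptor genes had the most calls on the NK side, with 19 of 23 higher, and T cell receptor signalling genes the most on the T cell side, with 17 of 26 lower, while over all 8845 genes the calls were near even.

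The killing machinery divided between the arms gene by gene. Of 25 tested granule and death ligand genes, 18 were higher in NK cells, 4 were lower and 3 were not called, with a median log2 fold of 0.90 beside -0.0014 over all genes. Prf1, Gzma and Gzmb were higher in NK cells, while Gzmm and Gzmk were lower. The sequences before the starts of 4 genes that carry this contrast are given first. Gzma lies on chromosome 13 (113093825 to 113100981, minus strand), Gzmb on chromosome 14 (56258838 to 56262260, minus strand), Prf1 on chromosome 10 (61297833 to 61304680, plus strand) and Gzmm on the same chromosome (79689020 to 79695261, plus strand), in GRCm38 as annotated by GENCODE vM21.

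The 250 bases before the first RefSeq start of each of these 4 genes (GRCm38.p6) are shown 5′ to 3′ on the gene's strand as the upstream context of genes that differed in opposite directions, beside the T-box and Runx factors measured below. Capitals mark matches to the core Runx motif TGTGGT or its reverse complement ACCACA.
Gzma promoter (chr13:113100982-113101231, minus strand): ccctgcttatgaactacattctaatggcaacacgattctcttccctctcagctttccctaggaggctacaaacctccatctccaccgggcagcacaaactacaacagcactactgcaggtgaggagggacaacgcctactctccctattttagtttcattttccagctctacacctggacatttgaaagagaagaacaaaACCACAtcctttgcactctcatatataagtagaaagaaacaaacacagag
Gzmb promoter (chr14:56262335-56262584, minus strand): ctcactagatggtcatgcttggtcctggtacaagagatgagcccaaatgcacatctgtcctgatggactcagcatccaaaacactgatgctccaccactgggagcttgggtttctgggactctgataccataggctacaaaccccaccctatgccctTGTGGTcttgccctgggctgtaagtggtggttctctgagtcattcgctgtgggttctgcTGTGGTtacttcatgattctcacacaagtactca
Prf1 promoter (chr10:61297586-61297835, plus strand): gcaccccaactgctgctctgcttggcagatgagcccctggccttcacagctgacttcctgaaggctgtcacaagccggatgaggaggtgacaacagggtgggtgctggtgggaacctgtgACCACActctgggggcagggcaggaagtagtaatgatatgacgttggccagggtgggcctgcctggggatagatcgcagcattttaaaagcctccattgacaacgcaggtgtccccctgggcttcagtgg
Gzmm promoter (chr10:79688770-79689019, plus strand): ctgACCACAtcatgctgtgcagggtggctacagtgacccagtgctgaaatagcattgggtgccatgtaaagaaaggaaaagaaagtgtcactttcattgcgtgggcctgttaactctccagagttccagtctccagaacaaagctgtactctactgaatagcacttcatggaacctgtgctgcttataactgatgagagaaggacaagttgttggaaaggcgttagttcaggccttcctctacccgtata
The Runx letters occurred 1 time in the Gzma window, 2 times in that of Gzmb, and 1 time each in those of Prf1 and Gzmm. Windows of a second Gzmm start, of Gzmk and of Fasl were also searched, and none of them held the Runx letters. Of 27025 windows of the same length in the RefSeq table, 3832 (14.2%) hold the letters on either strand. A T-box motif, GGTGTGA or TCACACC, was in none of the 4 windows shown and not in that of Fasl. It occurred 1 time each in the window of the second Gzmm start and in that of Gzmk, and in 894 (3.31%) of all windows. A match or its lack says nothing here of binding.

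Gzma, a tryptase-like granzyme, stood at 10870, 11343 and 8404 CPM in NK cells of replicates 1, 2 and 3, against 71.6, 82.2 and 144 CPM in memory-type CD8 T cells. Every NK library lay far above every memory-type library, and replicate 3 was the lowest NK library and the highest memory-type one. The log2 fold was 6.83 (SE 0.38, edgeR adjusted p = 0.00306), and naive-type CD8 T cells held 4.73 CPM. Gzmb, the aspartate-cleaving granzyme that triggers caspases, stood at 1526, 2198 and 1085 CPM in NK cells, against 18.7, 11.2 and 47.7 CPM in memory-type cells, with no overlap. Its log2 fold was 6.15 (SE 0.50, edgeR adjusted p = 0.00711). Among thinned cells, 70.5% ± 10.1 of NK cells and 1.71% ± 0.31 of memory-type cells held a Gzmb UMI. Without replicate 1 the Gzmb fold was 5.86 with an edgeR adjusted p of 0.239, and over all alternatives the adjusted p ran from 3.2e-51 to 0.239.

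Prf1, which encodes the pore-former perforin, stood at 2275, 2521 and 1746 CPM in NK cells, against 136, 158 and 145 CPM in memory-type cells. All NK libraries were above all memory-type libraries, which agreed closely among themselves. The log2 fold was 3.94 (SE 0.08, edgeR adjusted p = 2.75e-55). Naive-type CD8 T cells held 86.1 ± 12.1 CPM of Prf1 and B cells 3.20 CPM, so the perforin transcript was present in CD8 T cells that showed no memory gene. After thinning each barcode to 2000 UMIs, 92.6% ± 5.03 of NK cells, 23.8% ± 0.97 of memory-type cells, 15.1% ± 1.93 of naive-type cells and 0.617% ± 0.138 of B cells held a Prf1 UMI. Before thinning the shares were 96.6%, 44.4%, 23.2% and 1.00%.

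Gzmm, which encodes granzyme M, ran the other way. It stood at 14.2, 11.6 and 19.1 CPM in NK cells, against 125, 122 and 100 CPM in memory-type CD8 T cells. The 2 sets of libraries did not overlap, and the NK libraries were all low. The log2 fold was -3.08 (SE 0.20, edgeR adjusted p = 1.97e-24), and over 13 alternative settings it stayed between -3.90 and -2.91. Naive-type CD8 T cells held 2.66 CPM and B cells 1.71 CPM. Among cells thinned to 2000 UMIs, 1.32% ± 0.69 of NK cells and 12.6% ± 2.96 of memory-type cells held a Gzmm UMI, against 0.569% ± 0.565 of naive-type and 0.368% ± 0.216 of B cells. The thinned shares were 2.06%, 0.709% and 1.19% in NK cells of replicates 1, 2 and 3, against 0.118%, 0.495% and 0.490% in B cells. Unthinned, the share was 4.00% ± 0.54 in NK cells, 21.5% ± 3.27 in memory-type cells and 0.541% ± 0.340 in B cells.

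Gzmk, a granzyme associated with memory T cells, stood at 9.29, 3.88 and 12.7 CPM in NK cells, against 24.5, 15.0 and 20.9 CPM in memory-type cells. These levels did not overlap but lay close together, with a log2 fold of -1.35 (edgeR, SE 0.35, adjusted p = 0.000765). Among thinned cells of replicates 1, 2 and 3, the share with a Gzmk UMI was 1.27%, 1.42% and 2.38% in NK cells. In memory-type cells it was 2.46%, 1.93% and 2.17%, so these shares overlapped. Before thinning the shares were 1.82%, 1.37% and 2.25% in NK cells and 4.06%, 1.89% and 2.66% in memory-type cells, which also overlapped. A difference in these shares was not tested. Without replicate 1 the Gzmk fold was -1.23 at an edgeR adjusted p of 0.162, in DESeq2 it was -1.34 at an adjusted p of 0.177, and the adjusted p ran from 3.91e-07 to 0.177 over all alternatives. No Gzmk UMI was found in naive-type or B cells.

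The other death effectors also split. Fasl, the ligand of the death receptor Fas, averaged 387 ± 21.4 CPM in NK cells and 19.3 ± 6.79 CPM in memory-type cells, a log2 fold of 4.10 (SE 0.12). Tnfsf10, the death ligand TRAIL, averaged 11.6 ± 7.47 CPM in NK cells and 53.5 ± 11.7 CPM in memory-type cells, a log2 fold of -2.05 (SE 0.24). Fas itself was lower in NK cells, at 6.92 ± 0.736 CPM against 56.7 ± 7.23 CPM (log2 fold -3.03, SE 0.28). Each of these 3 passed the edgeR threshold, and their NK and memory-type libraries did not overlap.

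Granule proteins common to both lineages differed less. Nkg7, a granule membrane protein needed for degranulation, averaged 5366 ± 223 CPM in NK cells, 1603 ± 34.3 CPM in memory-type cells and 778 CPM in naive-type cells, and its log2 fold was 1.74 (SE 0.07). Ctsw, the lymphocyte cathepsin W, had a log2 fold of 0.72 (SE 0.07), and Cst7, the cathepsin inhibitor cystatin F, one of 0.34 (SE 0.08). Srgn, the proteoglycan that packs granzymes, was not called at 825 ± 36.7 CPM in NK cells and 763 ± 23.5 CPM in memory-type cells, and Lamp1 and Stxbp2 were not called either. Lyst, the lysosomal trafficking regulator mutated in beige mice, was lower in NK cells at 78.9 ± 12.4 CPM against 221 ± 30.3 CPM (log2 fold -1.58, SE 0.12). Serpinb9, the inhibitor that shields killer cells from their own granzyme B, averaged 439 ± 31.4 CPM in NK cells and 20.2 ± 1.76 CPM in memory-type cells, a log2 fold of 4.44 (SE 0.12). Its relative Serpinb9b gave 172 UMIs in NK sums and 2 in memory-type sums, a pooled ratio of 163 (exact 95% interval 44.3 to 1353, counting error only).

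**Figure D2:**
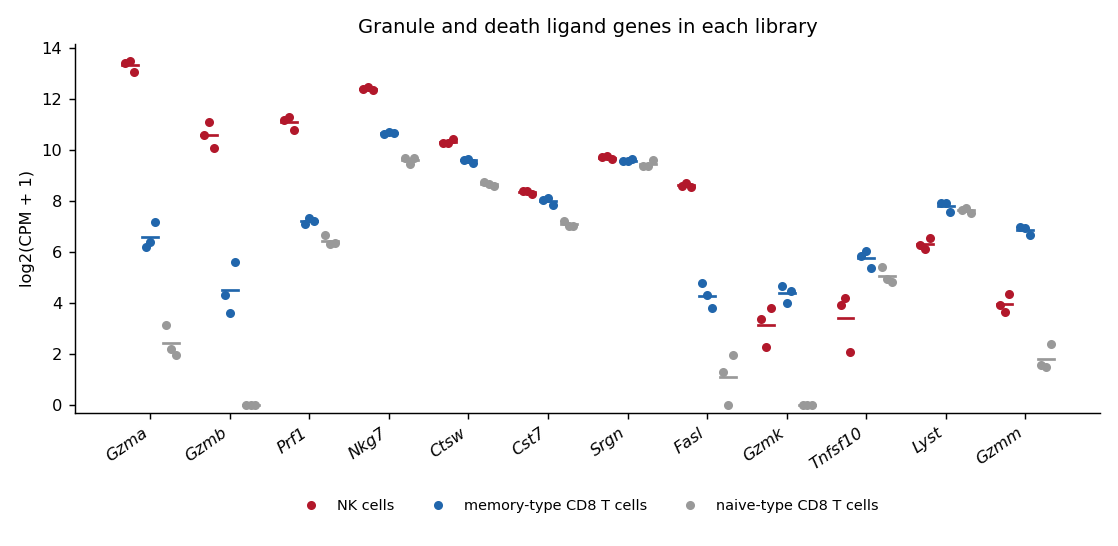
Levels of 12 granule and death ligand genes as log2(CPM + 1) in each of 3 libraries, with bars at the mean, for NK cells, memory-type CD8 T cells and naive-type CD8 T cells. Gzma, Gzmb, Prf1 and Fasl sat far higher in NK cells, Srgn lay at one height in all 3 populations, and Gzmm, Lyst, Tnfsf10 and Gzmk sat lower in NK cells than in memory-type cells.

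Receptor adaptors were found on both sides. Of 14 tested adaptors and proximal partners, 8 were higher in NK cells and 5 lower. Tyrobp (DAP12), the ITAM adaptor of activating killer lectins, stood at 4446, 4012 and 4033 CPM in NK cells, against 18.7, 10.3 and 11.6 CPM in memory-type cells. No library overlapped, and the log2 fold was 8.09 (SE 0.12, edgeR adjusted p = 8.18e-68). After thinning, 99.9% ± 0.18 of NK cells held a Tyrobp UMI, against 2.71% ± 0.29 of memory-type, 1.83% ± 0.62 of naive-type and 9.83% ± 1.98 of B cells. The memory-type share was thus below that of B cells and above that of naive-type cells. Since naive-type cells held less than B cells, the B cell share was not read as a level of free RNA here. Fcer1g, the gamma chain that serves Fc receptors and NKp46, averaged 2846 ± 37.0 CPM in NK cells and 23.6 ± 3.67 CPM in memory-type cells (log2 fold 6.90, SE 0.11). Sh2d1b1, which encodes the adaptor EAT-2 of the signalling lymphocyte activation receptors, averaged 171 ± 4.64 CPM in NK cells and had no UMI in memory-type cells, which makes it at least 327-fold higher (against 3 counts over the memory-type arm).

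The kinases and lipases downstream of the adaptors differed by paralog. Syk, one of 2 kinases that dock on phosphorylated ITAMs, averaged 483 ± 22.9 CPM in NK cells and 12.6 ± 5.87 CPM in memory-type cells (log2 fold 5.60, SE 0.14). Its relative Zap70 was slightly lower in NK cells, at 315 ± 28.2 CPM in NK cells and 401 ± 10.7 CPM in memory-type cells (log2 fold -0.34, SE 0.08). Plcg2, the phospholipase used by B and NK cells, averaged 216 ± 47.5 CPM in NK cells and 6.75 ± 1.05 CPM in memory-type cells (log2 fold 4.91, SE 0.18). Plcg1, the phospholipase of T cells, stood at 9.74, 5.81 and 9.54 CPM in NK cells, against 260, 226 and 270 CPM in memory-type cells. The Plcg1 libraries did not overlap, and the log2 fold was -4.81 (SE 0.18, edgeR adjusted p = 2.15e-39). The scaffolds also ran in opposite directions: Lat2 had a log2 fold of 6.36 (SE 0.17), and Lat, the T cell scaffold, one of -2.47 (SE 0.09), at 164 ± 21.5 CPM in NK cells against 885 ± 81.5 CPM in memory-type cells.

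Adaptors that both lineages use stayed close. Cd247, the zeta chain of the T cell receptor and of NK receptors, averaged 429 ± 64.0 CPM in NK cells and 547 ± 24.9 CPM in memory-type cells (log2 fold -0.41, SE 0.08). Hcst (DAP10), the adaptor of NKG2D, averaged 369 ± 8.94 CPM in NK cells and 445 ± 32.5 CPM in memory-type cells (log2 fold -0.31, SE 0.08, edgeR adjusted p = 0.00082). The Hcst call was lost without replicate 1, at a fold of -0.23 and an edgeR adjusted p of 0.185, and in DESeq2, at -0.30 and 0.111, within a range of 1.99e-05 to 0.185 over all alternatives.

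T cell receptor signalling genes were mostly, but not all, on the T cell side, with 5 of 26 higher and 17 lower in NK cells and a median log2 fold of -0.52. Cd5, Cd6 and Themis were among the lower genes, while Cd2, an adhesion and costimulatory receptor, was closer, at 728 ± 61.0 CPM in NK cells and 916 ± 11.3 CPM in memory-type cells (log2 fold -0.32, SE 0.07). Cd5, an inhibitor of T cell receptor signals, averaged 1.09 ± 0.99 CPM in NK cells and 378 ± 10.0 CPM in memory-type cells (log2 fold -8.12, SE 0.23). Cd6 gave 1 UMI in NK sums and 1134 in memory-type sums, a pooled ratio of 600 in favour of memory-type cells (exact 95% interval 107 to 23718). Themis, a thymocyte selection protein that sets signal strength, averaged 3.24 ± 0.61 CPM in NK cells and 486 ± 29.9 CPM in memory-type cells (log2 fold -7.35, SE 0.19). The kinases shared by both lineages were nearer to each other: Lck had a log2 fold of -0.41 (SE 0.07) and Fyn one of 0.75 (SE 0.08). Dgka, which removes the second messenger diacylglycerol, had a log2 fold of -2.75 (SE 0.09). Ubash3b, a phosphatase that acts on Syk-family kinases, led the 5 genes that were higher, at 206 ± 21.3 CPM in NK cells and 88.7 ± 7.57 CPM in memory-type cells (log2 fold 1.16, SE 0.11), followed by Nfatc1 at a log2 fold of 0.88 (SE 0.08).

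**Figure D3:**
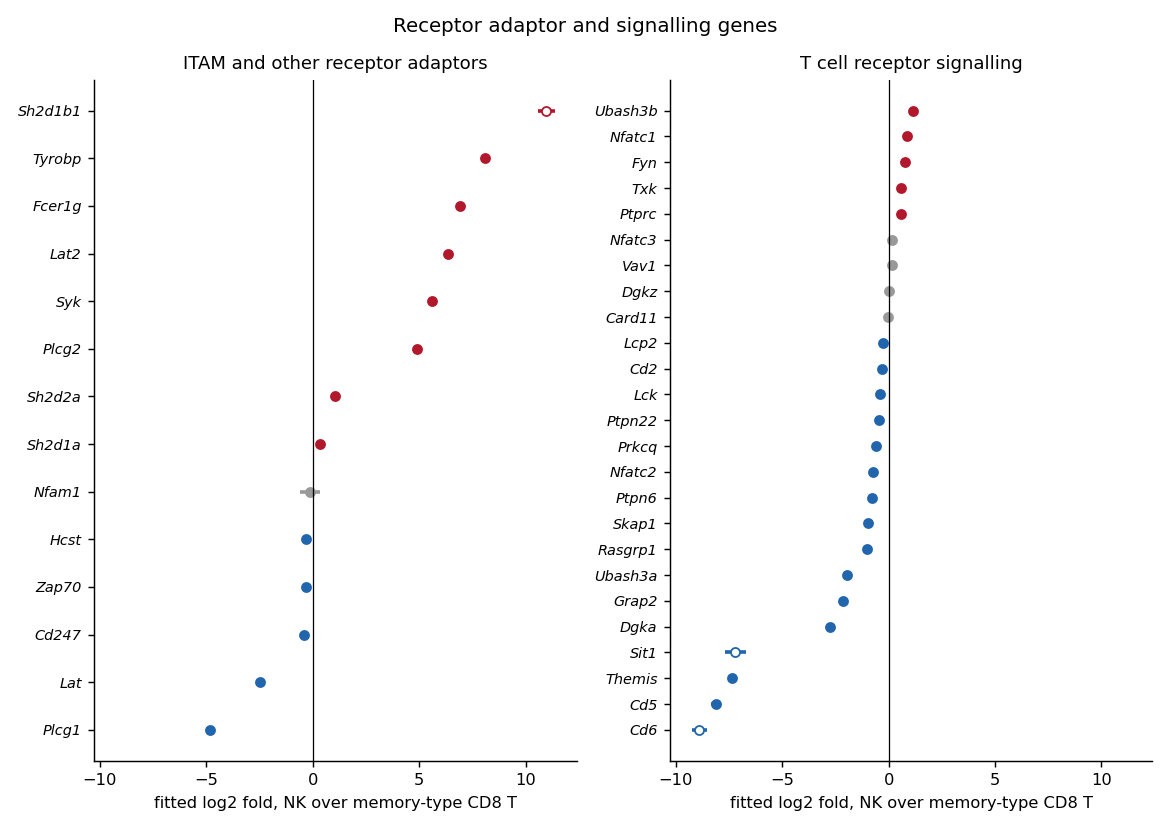
Fitted log2 fold of NK over memory-type CD8 T cells with its SE, for 14 receptor adaptor genes and 25 of the 26 T cell receptor signalling genes; red is called higher in NK cells, blue lower and grey not called, and open circles mark genes with 3 or fewer UMIs in an arm, whose fitted fold is no bound. Tyrobp at 8.09 and Plcg1 at -4.81 mark the spread of the adaptors, while Zap70, Cd247 and Lck lie close to the line at 0.

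Transcripts of the T cell receptor chains were left out of the test, since the gates use Trac and Trbc2. Trdc, the constant region of the delta chain, stood at 269, 213 and 207 CPM in NK cells, against 61.9, 36.5 and 23.3 CPM in memory-type cells, with 26.9 CPM in naive-type and 0.545 CPM in B cells. All NK libraries were above all memory-type ones, and 30.7% ± 4.31 of thinned NK cells held a Trdc UMI, against 2.80% ± 0.44 of memory-type and 0.0947% ± 0.0186 of B cells. The gamma chain constants ran the other way: Tcrg-C1 and Tcrg-C2 had no UMI in NK sums, against 31 and 92 UMIs in memory-type sums, and Tcrg-C4 had 3 UMIs against 87. Trbc1, a beta chain constant, stood at 780, 748 and 773 CPM in NK cells, against 944, 775 and 735 CPM in memory-type cells, and the sets overlapped. Trbc1 and Trbc2 are near-identical copies, so how the counting split them is uncertain.

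Killer lectins set the NK side of the receptors. Of 23 tested killer lectin and NK receptor genes, 19 were higher in NK cells and 2 lower, with a median log2 fold of 4.01. Klrg1, an inhibitory receptor for cadherins and a mark of mature NK and effector T cells, stood at 528, 868 and 452 CPM in NK cells, against 9.97, 15.9 and 11.6 CPM in memory-type cells. No library overlapped, and the log2 fold was 5.67 (SE 0.13, edgeR adjusted p = 2.72e-54). Klrk1, the activating receptor NKG2D, averaged 1619 ± 130 CPM in NK cells, 77.9 ± 11.9 CPM in memory-type cells and 1.18 CPM in naive-type cells (log2 fold 4.44, SE 0.09). Klrc1 (NKG2A), which pairs with CD94, averaged 693 ± 123 CPM in NK cells and 81.0 ± 22.2 CPM in memory-type cells (log2 fold 3.00, SE 0.09). Klrd1, CD94 itself, stood at 1240, 1159 and 1145 CPM in NK cells, against 397, 439 and 392 CPM in memory-type cells. Its NK libraries were all above its memory-type ones, with a log2 fold of 1.54 (edgeR, SE 0.07, adjusted p = 6.88e-32). The memory-type level was near the 393 CPM of naive-type cells, whereas Klrk1 and Klrc1 were all but absent there.

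Members of the Klrb1 family that no gate used had almost no UMI in memory-type cells, although counts may be split uncertainly among such close copies. Klrb1b gave 1469 UMIs in NK sums and 2 in memory-type sums (pooled ratio 1388, exact 95% interval 384 to 11474), and Klrb1a gave 899 and 1 (1699, 304 to 67189). Cd244a, the receptor 2B4, averaged 715 ± 30.2 CPM in NK cells and 3.05 ± 2.92 CPM in memory-type cells (log2 fold 7.83, SE 0.16). Clec2d, a ligand of the Klrb1 family, was among the 2 genes lower in NK cells, at 648 ± 16.8 CPM against 967 ± 32.5 CPM (log2 fold -0.56, SE 0.07). The other was its neighbour Clec2i (log2 fold -0.48, edgeR adjusted p = 0.00409), whose libraries overlapped. The Clec2i call was lost without replicate 1 (-0.25, edgeR adjusted p = 0.447), after thinning (-0.46, 0.0636) and in DESeq2 (-0.42, 0.359), within a range of 0.000325 to 0.447 over all alternatives.

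Ly49 genes (Klra), inhibitory or activating receptors for class I molecules in mice, did not move as one. Klra8 averaged 1334 ± 132 CPM in NK cells and 5.27 ± 5.52 CPM in memory-type cells (log2 fold 8.56, SE 0.18), and Klra4 averaged 1055 ± 165 CPM and 3.64 ± 2.52 CPM (8.55, SE 0.16). Klra7 reached 29.1 ± 8.12 CPM in memory-type cells beside 228 ± 35.7 CPM in NK cells (log2 fold 2.95, SE 0.13). Klra6 was not called, at 36.6 ± 10.3 CPM in NK cells and 44.3 ± 14.8 CPM in memory-type cells, and no Klra6 or Klra7 UMI was found in naive-type cells. These genes are near-identical copies, so a probe may count more than 1 of them.

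Counted per cell over 7 Ly49 genes after thinning to 2000 UMIs, 54.9% ± 8.86 of NK cells held UMIs of 2 or more, 33.1% ± 5.23 of 1, and 12.1% ± 4.40 of none. Among memory-type cells 1.30% ± 0.70 held 2 or more, 8.03% ± 2.41 held 1 and 90.7% ± 2.38 none, and among B cells 99.6% ± 0.17 held none. Before thinning, 64.3% ± 8.28 of NK cells and 5.29% ± 1.46 of memory-type cells held 2 or more. Klrg1 and Cd27 mark late and early NK maturation in mice. A UMI of Klrg1 was found in 48.7% ± 11.1 of thinned NK cells and one of Cd27 in 15.7% ± 2.19. Of these cells 44.7% ± 10.4 held Klrg1 alone, 11.7% ± 2.94 Cd27 alone, 3.96% ± 0.88 both and 39.6% ± 8.21 neither. Since few cells held Cd27 at this depth, a low share with both is partly set by that, and a relation of the 2 genes was not tested.

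Most of these receptor genes are neighbours. Of the 23 tested, 19 lie on chromosome 6 between 122270596 and 130337574 (GRCm38), a stretch of 8.07 Mb that spans the NK gene complex. Of those 19, 16 were higher in NK cells and 2 lower. The stretch holds 67 tested genes in all, 29 of them higher and 23 lower. Its ends were set by the outermost of the 19 listed genes, and the 67 include them. Over all 8845 genes tested, 24.8% were higher and 25.4% lower, so the count for the stretch does not describe the region apart from the list.

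Transcription factors of the cytotoxic programme were graded rather than present in one arm alone. Of 34 tested factors, 17 were higher in NK cells and 15 lower. Tbx21 (T-bet) stood at 1021, 1194 and 1050 CPM in NK cells, against 152, 171 and 130 CPM in memory-type cells, and 3.59 CPM in naive-type cells. NK libraries lay above memory-type ones throughout, with a log2 fold of 2.82 (edgeR, SE 0.08, adjusted p = 1.36e-46). Eomes stood at 668, 572 and 693 CPM in NK cells, against 144, 179 and 163 CPM in memory-type cells, and 28.2 CPM in naive-type cells. Its sets did not overlap either, with a log2 fold at 2.04 (SE 0.09, edgeR adjusted p = 2.97e-33). Runx3, which both lineages need, differed less, at 628 ± 27.3 CPM in NK cells and 439 ± 41.1 CPM in memory-type cells (log2 fold 0.55, SE 0.08).

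Other factors separated the arms further. Irf8, an interferon regulatory factor, averaged 927 ± 191 CPM in NK cells and 14.5 ± 5.68 CPM in memory-type cells (log2 fold 6.01, SE 0.12). Zbtb16 (PLZF), a factor of innate-like lymphocytes, averaged 70.4 ± 3.57 CPM in NK cells and 1.5 ± 1.79 CPM in memory-type cells (5.74, SE 0.36). Zeb2, which acts with T-bet in terminal maturation, averaged 827 ± 148 CPM in NK cells and 31.0 ± 6.59 CPM in memory-type cells (4.87, SE 0.11), and Prdm1 (Blimp-1) averaged 118 ± 22.3 CPM and 7.82 ± 0.805 CPM (4.06, SE 0.21). The inhibitor of DNA binding pair ran in opposite directions. Id2, needed for NK cells, averaged 2150 ± 53.2 CPM in NK cells and 262 ± 31.1 CPM in memory-type cells (log2 fold 3.07, SE 0.08). Id3, linked to long-lived memory, averaged 5.76 ± 5.07 CPM in NK cells and 131 ± 27.5 CPM in memory-type cells (log2 fold -5.63, SE 0.37).

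Among factors of the T lineage, Tcf7, Lef1 and Bcl11b were lower in NK cells, while Gata3 was higher, at 209 ± 25.6 CPM in NK cells and 158.5 ± 3.50 CPM in memory-type cells (log2 fold 0.34, SE 0.10). Tcf7 (TCF-1) stood at 105, 91.1 and 232 CPM in NK cells, against 933, 965 and 951 CPM in memory-type cells. Replicate 3, with 89 NK cells, was the high NK library, still below every memory-type one, and the log2 fold was -2.95 (SE 0.26, edgeR adjusted p = 0.00259). Lef1 averaged 130 ± 19.2 CPM in NK cells and 918 ± 42.8 CPM in memory-type cells (log2 fold -2.74, SE 0.09). Bcl11b, the guardian of T cell identity, averaged 7.25 ± 8.06 CPM in NK cells and 355 ± 12.6 CPM in memory-type cells (log2 fold -4.85, SE 0.17), and 1.27% ± 1.20 of thinned NK cells held a UMI of it, against 48.9% ± 1.49 of memory-type and 0.233% ± 0.036 of B cells. Klf2, which keeps lymphocytes in circulation, was not called, with NK libraries at 2133, 2128 and 2179 CPM and overlapping memory-type libraries at 2142, 2249 and 2810 CPM.

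**Figure D4:**
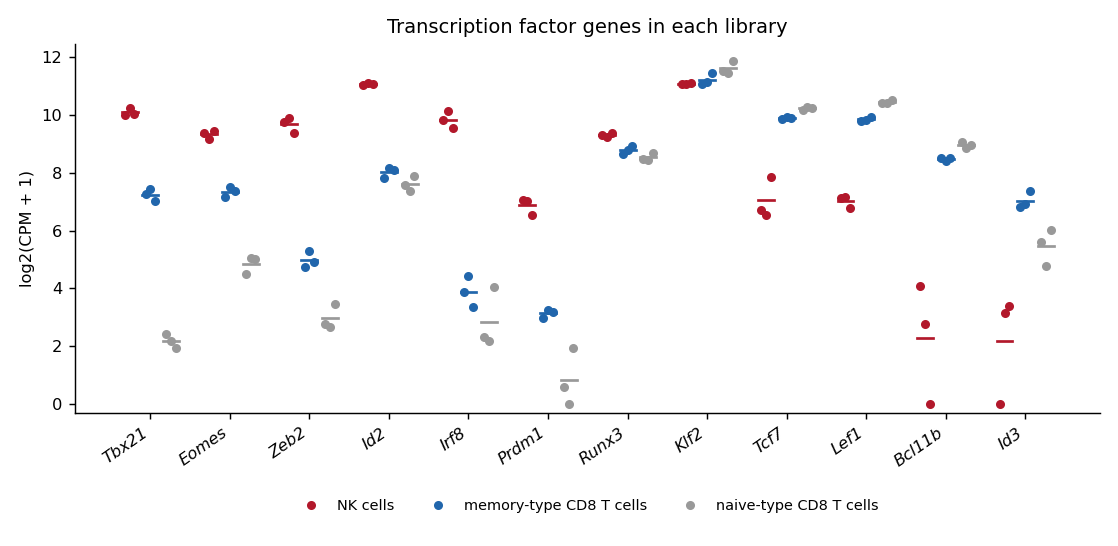
Levels of 12 transcription factor genes as log2(CPM + 1) in each of 3 libraries, with bars at the mean, for NK cells, memory-type CD8 T cells and naive-type CD8 T cells. Tbx21 and Eomes step down from NK to memory-type to naive-type cells, Klf2 and Runx3 lie close together, and Tcf7, Lef1, Bcl11b and Id3 sit lower in NK cells.

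Cytokine receptors divided by the cytokine. Of 22 tested, 8 were higher in NK cells, 9 lower and 5 not called. Il12rb2, the signalling chain of the interleukin 12 receptor, averaged 358 ± 77.7 CPM in NK cells and 4.32 ± 2.12 CPM in memory-type cells (log2 fold 6.31, SE 0.17). Il18rap, a chain of the interleukin 18 receptor, averaged 1182 ± 127 CPM in NK cells and 179 ± 23.6 CPM in memory-type cells (2.75, SE 0.08). Kit, the stem cell factor receptor, stood at 16.4, 25.2 and 57.3 CPM in NK cells, against 1.02, 0.935 and 0 CPM in memory-type cells (4.68, SE 0.55). Basophils carry Itga2, an adhesion gene described below, and 6 NK barcodes but no memory-type barcode held 3 or more basophil marker UMIs. Without those barcodes the edgeR fold of Kit was 4.69 and that of Itga2 was 5.21.

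Receptors of T cell homeostasis and of the interleukin 6 family were on the T cell side. Il7r, the interleukin 7 receptor of long-lived T cells, stood at 13.3, 11.6 and 31.8 CPM in NK cells, against 895, 981 and 927 CPM in memory-type cells. Replicate 3 was again the high NK library, no library overlapped, and the log2 fold was -5.92 (SE 0.14, edgeR adjusted p = 8.73e-53). Il6ra averaged 3.38 ± 0.43 CPM in NK cells and 213 ± 10.7 CPM in memory-type cells (log2 fold -5.99, SE 0.23), and its partner Il6st averaged 13 ± 0.458 CPM and 361 ± 16.0 CPM (-4.81, SE 0.15). Il21r had a log2 fold of -4.19 (SE 0.27). The shared gamma chain Il2rg did not differ beyond the spread between libraries, at 889 ± 36.2 CPM in NK cells and 893 ± 49.6 CPM in memory-type cells (log2 fold -0.01, SE 0.07).

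Secreted products were on both sides. Of 13 tested cytokines and chemokines, 7 were higher in NK cells and 4 lower. Ifng stood at 89.8, 101 and 89.1 CPM in NK cells, against 2.05, 3.74 and 0 CPM in memory-type cells, a fold of 5.42 on the log2 scale (edgeR, SE 0.29, adjusted p = 2.36e-28) with no overlap. Xcl1, the chemokine that draws cross-presenting dendritic cells, stood at 217, 140 and 216 CPM in NK cells, against 59.6, 61.7 and 52.4 CPM in memory-type cells (1.75, SE 0.12), and no UMI of it was found in naive-type cells. Ccl3 averaged 189 ± 19.8 CPM in NK cells and 1.78 ± 0.57 CPM in memory-type cells (6.38, SE 0.23). Ltb, which builds lymphoid tissue, ran the other way at 80.5, 75.6 and 213 CPM in NK cells, against 1137, 1050 and 1166 CPM in memory-type cells. Its high NK library was replicate 3, and the log2 fold was -3.50 (SE 0.32, edgeR adjusted p = 0.00685). Mif, macrophage migration inhibitory factor, averaged 47.7 ± 12.8 CPM in NK cells and 143 ± 5.37 CPM in memory-type cells (-1.64, SE 0.14).

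Receptors that direct traffic were found on both sides. Of 16 tested chemokine and sphingosine receptors, 5 were higher in NK cells and 9 lower. The sphingosine 1-phosphate receptors, which lead lymphocytes out of tissues, ran in opposite directions. S1pr5 stood at 544, 603 and 499 CPM in NK cells, against 15.6, 19.6 and 10.5 CPM in memory-type cells (log2 fold 5.13, SE 0.12, edgeR adjusted p = 2.05e-52). S1pr1 stood at 108, 136 and 169 CPM in NK cells, against 614, 640 and 721 CPM in memory-type cells (log2 fold -2.36, SE 0.09, edgeR adjusted p = 6.64e-37). Neither gene's sets of libraries overlapped.

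Among chemokine receptors, Ccr7, which admits lymphocytes to lymph nodes, stood at 2.21, 3.88 and 9.54 CPM in NK cells, against 837, 801 and 841 CPM in memory-type cells and 1234 CPM in naive-type cells. Its NK libraries were all near 0, and the log2 fold was -7.96 (SE 0.18, edgeR adjusted p = 5.52e-54). Cxcr5, the follicle receptor, averaged 2.79 ± 1.32 CPM in NK cells, 139 ± 8.17 CPM in memory-type cells and 24.1 CPM in naive-type cells (log2 fold -6.07, SE 0.28). Cxcr6 averaged 0.885 ± 1.53 CPM in NK cells and 103 ± 13.6 CPM in memory-type cells (-5.72, SE 0.31), with 106 CPM in naive-type cells. Gpr15, a receptor for homing to the colon, gave 1 UMI in NK sums and 408 in memory-type sums (pooled ratio 216 in favour of memory-type cells, exact 95% interval 38.5 to 8547). On the NK side stood Cmklr1, the chemerin receptor, at 208 ± 40.1 CPM in NK cells and 2.46 ± 1.95 CPM in memory-type cells (log2 fold 6.67, SE 0.23), and Ccr2 at a log2 fold of 3.42 (SE 0.27).

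Adhesion genes were mostly on the NK side, with 14 of 23 higher and 8 lower. Itgam (CD11b), the alpha chain of the Mac-1 integrin, stood at 689, 824 and 449 CPM in NK cells, against 4.86, 5.61 and 2.33 CPM in memory-type cells, with no overlap (log2 fold 7.17, SE 0.15, edgeR adjusted p = 5.65e-57). Itga2 (CD49b), bound by the NK antibody DX5 in mice, averaged 359 ± 45.1 CPM in NK cells and 11.2 ± 2.10 CPM in memory-type cells (5.21, SE 0.15). Itgae (CD103), the chain that binds epithelial cadherin, gave 1 UMI in NK sums and 290 in memory-type sums (pooled ratio 153 in favour of memory-type cells, exact 95% interval 27.3 to 6081), and naive-type cells held more of it, at 212 CPM, than the 48.7 ± 18.3 CPM of memory-type cells. Emb, the adhesion protein embigin, averaged 144 ± 73.6 CPM in NK cells and 557 ± 78.0 CPM in memory-type cells (log2 fold -2.22, SE 0.37), with replicate 3 the high NK library at 229 CPM.

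Cd44, a hyaluronan receptor raised on memory T cells, averaged 264 ± 23.5 CPM in NK cells, 188 ± 6.08 CPM in memory-type cells and 25.6 CPM in naive-type cells (log2 fold 0.51, SE 0.09).

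Costimulatory and inhibitory receptors leaned to the T cell side, with 9 of 25 higher and 13 lower in NK cells and a median log2 fold of -1.09. Cd27, a costimulatory receptor of the tumour necrosis factor family, stood at 96.5, 118 and 140 CPM in NK cells, against 387, 349 and 392 CPM in memory-type cells, with no overlap (log2 fold -1.81, SE 0.10, edgeR adjusted p = 1.66e-27). Cd28, the main costimulator of T cells, averaged 49.7 ± 2.36 CPM in NK cells and 236 ± 14.6 CPM in memory-type cells (-2.29, SE 0.12). Ly6a (Sca-1) averaged 2.18 ± 1.98 CPM in NK cells and 71.3 ± 13.6 CPM in memory-type cells (-4.69, SE 0.32), and Cd101 gave 2 UMIs against 165 (pooled ratio 43.6 in favour of memory-type cells, exact 95% interval 11.9 to 363). Tnfrsf9 (4-1BB), often read as an activation mark on T cells, averaged 216 ± 62.2 CPM in NK cells and 8.35 ± 4.22 CPM in memory-type cells (4.26, SE 0.18). Entpd1 (CD39), an enzyme that degrades extracellular ATP, averaged 153 ± 41.4 CPM in NK cells and 6.94 ± 3.88 CPM in memory-type cells (4.04, SE 0.20).

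Among the 11 lists, survival genes were the least divided: 6 of 16 were higher, 3 lower and 7 not called. Over all genes tested 50.2% were called in either direction, so this count does not set the list apart. Bcl2, the anti-apoptotic protein that interleukin 7 sustains, averaged 422 ± 13.7 CPM in NK cells and 864 ± 48.3 CPM in memory-type cells (log2 fold -1.03, SE 0.08). Its relative Bcl2l1 ran the other way at 185 ± 31.6 CPM in NK cells and 76.3 ± 8.26 CPM in memory-type cells (1.10, SE 0.12). Mcl1 was not called, at 541 ± 97.5 CPM in NK cells and 549 ± 23.2 CPM in memory-type cells.

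Outside the lists, the 8 highest and 8 lowest genes at 50 CPM or more included 5 with no UMI in memory-type cells. Aoah, which inactivates bacterial lipopolysaccharide, averaged 302 ± 22.3 CPM in NK cells and was at least 617-fold higher, and Tnfsf12 (TWEAK) averaged 244 ± 39.9 CPM and was at least 524-fold higher. Phactr3, Cdh22 and Eya1 were at least 258-fold, 160.0-fold and 108-fold higher. Cma1, a mast cell chymase gene 314.2 kb from Gzmb on chromosome 14, stood at 420, 450 and 251 CPM in NK cells, against 0.256, 0.935 and 0 CPM in memory-type cells (1259 UMIs and 2 UMIs, pooled ratio 1190, exact 95% interval 329 to 9836). Dab2ip and Khdc1a gave 521 and 518 UMIs in NK sums and 1 each in memory-type sums.

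The 8 lowest genes were nearly silent in NK cells. Tlr1, a receptor for bacterial lipopeptides, averaged 91.2 ± 14.3 CPM in memory-type cells and had no UMI in NK cells, which makes it at least 89.1-fold lower in NK cells. Ggt1 and St8sia1 also had none, and were at least 59.1-fold and 54.3-fold lower. Fcgrt, the neonatal Fc receptor, gave 3 UMIs in NK sums and 936 in memory-type sums (pooled ratio 165 in favour of memory-type cells, exact 95% interval 56.3 to 802). Nsg2 averaged 4.27 ± 4.58 CPM in NK cells and 451 ± 28.1 CPM in memory-type cells (log2 fold -7.52, SE 0.21), and Fam169b had a log2 fold of -7.29 (SE 0.24). Ass1, an enzyme of arginine synthesis, gave 1 UMI against 792, and Tdrp gave 2 against 1390.

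The memory-type arm was itself a range, which the comparison averages. Its cells were split by the UMIs of the memory gate, so Ccl5, Cxcr3 and Il2rb are not read here, and levels are plain CPM with no test. In the 453 cells with 3 to 9 memory UMIs, the 243 with 10 to 29 and the 443 with 30 or more, Ccr7 averaged 1138 ± 97.3, 889 ± 94.6 and 577 ± 32.4 CPM, beside 1234 CPM in naive-type cells. Lef1 was lower in each step as well, at 1274 ± 6.03, 938 ± 101 and 642 ± 4.43 CPM. Cd44 stood at 83.8 ± 11.2, 247 ± 31.5 and 265 ± 8.96 CPM and Tbx21 at 38.1 ± 5.98, 138 ± 31.2 and 277 ± 23.8 CPM. On these genes the low cells lay between naive-type cells and the rest of the arm.

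Cytotoxic genes differed between these steps to unlike degrees, and an order in which they appear was not tested. Prf1 stood at 109 ± 10.6, 168 ± 47.2 and 176 ± 10.9 CPM over the 3 steps. It was higher in the top step than in the lowest in every library, but differed less than the genes that follow. Gzmm stood at 14.6 ± 12.9, 93.1 ± 31.0 and 228 ± 7.83 CPM. Gzma stood at 1.19 ± 2.07, 4.32 ± 4.47 and 275 ± 176 CPM, Gzmb at 0, 1.70 ± 2.94 and 75.2 ± 72.2 CPM, and Klrk1 at 6.48 ± 5.48, 11 ± 10.2 and 192 ± 31.5 CPM. UMIs of Gzma, Gzmb and Klrk1 were thus found nearly all in the top step, while Gzmm also had 134 UMIs in the middle one. Few cells carried the first 2: before thinning, 3.44% ± 1.60 of all memory-type cells held a Gzma UMI and 2.59% ± 0.66 a Gzmb UMI. Even in the top step Gzma, Gzmb, Prf1 and Tbx21 were below every NK library, and Tyrobp, at 17.5 ± 6.48 CPM, was far below every NK library. Memory-type cells were also restricted to 10 or more memory UMIs, an alternative chosen after the data were seen. With that gate 1936 genes were higher and 1994 lower in NK cells. No gene called in the full comparison was called in the other direction.

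**Figure D5:**
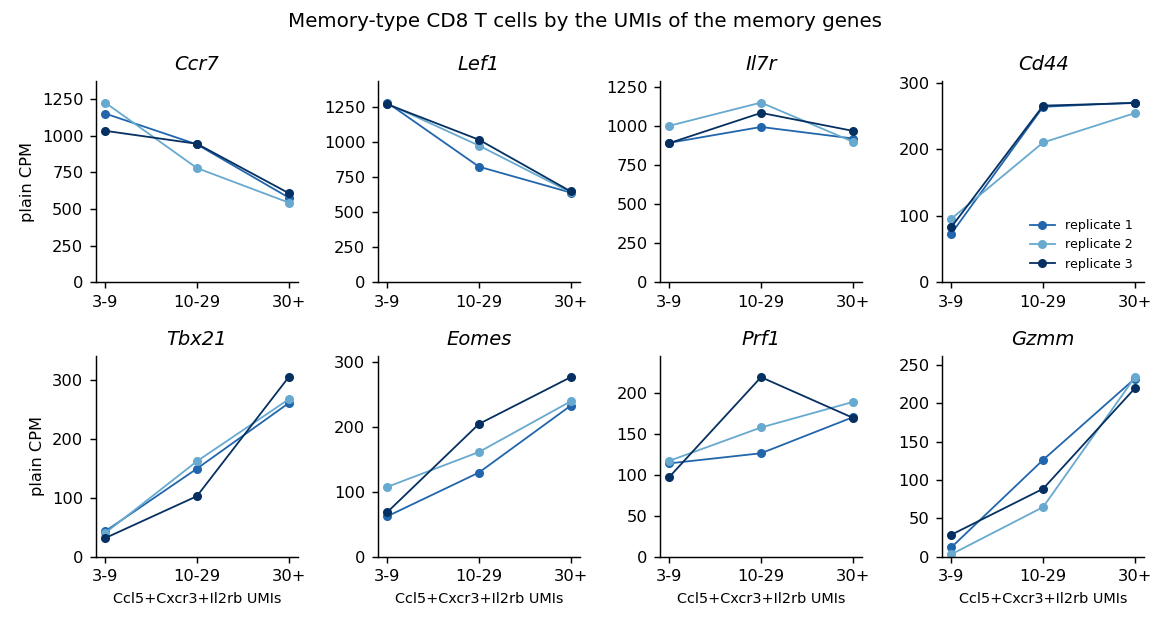
Plain CPM of 8 genes in memory-type CD8 T cells with 3 to 9, 10 to 29 and 30 or more UMIs of Ccl5, Cxcr3 and Il2rb, 1 line per library. Ccr7 and Lef1 step down and Cd44, Tbx21, Eomes and Gzmm step up, while Il7r and Prf1 differ less.

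Markers of other cells were read in both arms. The 10 B cell markers summed to 326 to 805 CPM in NK sums and 1034 to 1659 CPM in memory-type sums, against 43684 to 46278 CPM in B cells. Of 6 tested, 4 were lower in NK cells and none higher: Ighm averaged 292 ± 94.0 CPM in NK cells and 954 ± 51.5 CPM in memory-type cells. The 11 monocyte markers summed to 550 to 658 CPM in NK sums and 433 to 462 CPM in memory-type sums, with 2 of 4 tested higher and 1 lower. The 7 basophil markers summed to 91.2, 19.4 and 0 CPM in NK sums of replicates 1, 2 and 3, and at most 0.935 CPM in memory-type sums. Among the other lists, 1 of 4 tested neutrophil genes and 1 of 6 platelet genes were higher in NK cells and none lower, 2 of 3 dendritic cell genes were higher and 1 lower, and of 8 proliferation genes 1 was higher and 4 lower. Of the markers of innate lymphoid cells 1 and 2, 2 of 4 were higher and 1 lower, and of the CD4 T cell markers 1 of 2 was higher and 1 lower. Of 9 naive-type CD8 markers 8 were lower and none higher, and no gamma-delta or basophil marker could be tested. Dendritic cell markers summed to 463 to 630 CPM in NK sums and 215 to 257 CPM in memory-type sums, with 4 of 8 markers at 0 in each. Naive-type CD8 markers summed to 3268 to 3814 CPM in NK sums, 7500 to 7817 CPM in memory-type sums and 10195 to 10632 CPM in naive-type cells. The part of these markers in the results was not tested beyond the basophil values given with Kit. Since every comparison is of summed transcripts, fewer cells with a transcript and less of it per cell cannot be told apart except where shares of cells are given.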

How the data were processed

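The matrices hold whole-number UMI counts per gene and barcode, deposited after Cell Ranger 7.1.0 per the file headers, from a multiplexed fixed-RNA probe library per the labels' protocols. No label or header read here names the genome build or the version of the probe set. The other deposited columns are identifiers of genes and barcodes with no measured values. The 3 libraries held 45718031, 19591648 and 23443660 UMIs in 11105, 5736 and 7029 barcodes, of which 11004, 5051 and 6633 had 200 or more genes and were kept. Depth of the sums was 2307370, 543978 and 317952 UMIs in NK cells and 3780287, 1059989 and 824261 UMIs in memory-type CD8 T cells.

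UMIs were summed per library and arm and tested with edgeR 4.0.16 (quasi-likelihood with robust fitting, TMM scaling, its default filter on low counts, library as a block) in R 4.3.3. Each library gives both arms, so the pairing is by design. The 19 gate genes and the other T cell receptor chain genes were left out, and Benjamini-Hochberg adjustment ran over all 8845 genes tested. The test was run first on simulated data. Scrublet in scanpy 1.11.5 called 667, 116 and 138 doublets, which were kept and left out in an alternative.

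Members, lists, gates and the rule for named genes were chosen with earlier results of these data known. The rule named 26 genes always, the 2 highest and 2 lowest of each of 11 lists among those past the threshold and at 20 CPM or more, and the 8 highest and 8 lowest outside the lists at 50 CPM or more, 77 genes in all. Other genes are named for their roles after their values were seen, and a few members are not reported here. The gamma chain genes planned as Trgc are Tcrg-C in the matrices. Alternatives were plain totals, no filter, no block, each library left out, doublets removed, stricter gates, thinning to 2000 UMIs, no gamma-delta receptor UMI and DESeq2 1.42.0, and after seeing the data, a higher memory gate and removal of barcodes with basophil transcripts.

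A gene with no UMI in 1 arm has its fold as a bound against 3 counts over the arm, and one with 1 to 3 UMIs a pooled ratio with an exact 95% interval. Intervals and bounds cover counting error only. Positions are from GENCODE vM21 (GRCm38) and promoters from RefSeq (GRCm38.p6), used for names and context alone.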

Additional observations from a re-analysis of the deposited data

How the results depend on the processing

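No gene called between NK cells and memory-type CD8 T cells was called in the other direction under any of the 13 alternatives. No named gene changed sign. The signs of other genes that lost their call were not counted. The counts of genes higher and lower in NK cells were 2196 and 2247 as reported, and 1982 and 2038 with no replicate block, that is without pairing the arms of a library. Leaving out 1 library gave 1396 to 2103 higher and 1330 to 2168 lower, the lowest without replicate 1. Thinning to 2000 UMIs gave 1422 and 1483, and DESeq2 gave 1129 and 1047. Plain library totals gave 1859 and 2595, with the median of all genes at -0.08 on the log2 scale. The calls kept were 59.7% without replicate 1, 62.5% after thinning, 47.4% in DESeq2 and 83.9% to 98.9% otherwise. Of 286 list counts recomputed, 280 stayed within 1.5 times. The exceptions were the killer lectin genes lower in NK cells, 1 rather than 2 without replicate 1, after thinning and in DESeq2, the adaptors lower, 3 rather than 5 without replicate 1 and in DESeq2, and the survival genes higher, 3 rather than 6 in DESeq2. Among 77 named genes, Clec2i, Gzmb, Gzmk and Hcst lost their call under at least 1 alternative, with values given in the report. The cause was not tested. NK sums hold fewer UMIs than memory-type sums in every library, 317952 in the shallowest, which limits what low counts in NK cells can show.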

Other observations

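The genes here lie outside the lists and were chosen after their values were seen. All 13 mitochondrially encoded messenger RNAs, which code for subunits of the respiratory chain and ATP synthase, were lower in NK cells by edgeR, with a median log2 fold of -1.64 and a range of -1.89 to -0.63. mt-Co1, a subunit of cytochrome c oxidase, averaged 321 ± 31.8 CPM in NK cells, 882 ± 224 CPM in memory-type CD8 T cells and 910 CPM in naive-type CD8 T cells (log2 fold -1.51). The libraries of the 2 arms overlapped for mt-Nd6. All 13 were called lower under every alternative except that with no replicate block, where 10 were.

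The next genes were also called by edgeR and picked singly after their values were seen, so they describe no group of genes, and 25.4% of all tested genes were lower in NK cells. Eef1b2 averaged 379 ± 38.8 CPM in NK cells and 1677 ± 14.0 CPM in memory-type cells (log2 fold -2.17), and Eef1a1 and Eef2 had log2 folds of -1.32 and -1.27. Npm1, a nucleolar protein of ribosome assembly, had a log2 fold of -2.0, and Myc, which drives growth, averaged 76.8 ± 24.5 CPM in NK cells and 252 ± 26.0 CPM in memory-type cells (-1.88). Thy1, a surface protein of T cells and some NK cells in mice, averaged 451 ± 111 CPM in NK cells and 2522 ± 111 CPM in memory-type cells (-2.58). On the NK side, Anxa2, a membrane-binding annexin, averaged 1500 ± 125 CPM in NK cells and 142 ± 10.9 CPM in memory-type cells (3.34), and Plek, a platelet and leukocyte kinase substrate, averaged 1336 ± 86.6 CPM and 219.9 ± 15.5 CPM (2.64).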
